A study of Mus musculus with 12 samples.

Results

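Atp1b1, Atp1b2 and Atp1b3 encode the beta subunits of the sodium pump (Na,K-ATPase) that were measured here. They were taken by symbol from the mouse genes counted in this series, which gave 3 of 46517 gene identifiers. RNA came from the ventromedial nucleus (VMN) of the hypothalamus of mice on regular chow after an overnight fast. It was collected by translating ribosome affinity purification (TRAP), in which a virus makes chosen cells carry a GFP-tagged ribosomal protein, L10, so that their ribosomes can be pulled down with the RNA they hold. Each of 6 pools of 6 animals gave an output library, the RNA pulled down to represent SF1 cells, and an input library of the dissected VMN.

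The 4 groups of 3 libraries were DN output, CTRL output, DN input and CTRL input. All animals received an adeno-associated virus (AAV) for the GFP-L10 fusion. DN animals also received an AAV coding for dominant-negative AMPK, a kinase that senses cellular energy, and CTRL animals are marked as lacking this mutant. The description of the treatment lists that virus for CTRL animals as well, and the mark was followed here. No other virus is named for them, so the mutant and the added viral load cannot be told apart. Strain, age and the driver of expression in SF1 cells are not given in the sources.

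The sodium pump moves sodium out of the cell and potassium in, at the cost of ATP, and so maintains the gradients that neurons spend in firing and that glia use to clear transmitter and potassium. Each pump pairs a catalytic subunit with a glycosylated beta subunit, which helps the enzyme to fold, to reach the membrane and to bind potassium. In brain, Atp1b1 is the common beta subunit of neurons, Atp1b2 was first known as an adhesion molecule on glia and is abundant in astrocytes, and Atp1b3 is a broadly expressed isoform.

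All 3 genes are protein-coding and lie on the minus strand of GRCm38. Atp1b1 (ENSMUSG00000026576) spans bases 164437109 to 164458355 of chromosome 1, Atp1b2 (ENSMUSG00000041329) bases 69599736 to 69605942 of chromosome 11 and Atp1b3 (ENSMUSG00000032412) bases 96332655 to 96364442 of chromosome 9. Their lowest counts in any library were 8895 for Atp1b1, 10142 for Atp1b2 and 1129 for Atp1b3, so all 3 passed the filter on low counts in every comparison. Of the 3081 exon bases of Atp1b1, 575 are shared with Nme7 on the opposite strand, and Nme7 had at most 972 counts in a library. Since the strand setting of the counting is not given, reads in the shared bases may have gone to either gene or to the ambiguous reads, which were left out.

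Each library held 34.6 to 55.5 M gene counts. The mitochondrial genome supplied 17.9 to 26.1% of them in outputs and 74.9 to 79.7% in inputs, which left 26.2 to 32.1 M nuclear counts in outputs and 8.54 to 11.3 M in inputs. Of 14 tested VMN neuron markers, 9 were higher in output than in input in DN and 11 in CTRL, among them Fezf1 in both. Of all genes tested, 1.84% were higher in DN and 1.78% in CTRL. Fezf2 (-0.87 in DN, -2.09 in CTRL) and Foxp2 (-0.034 and -0.64) had negative log2 fold changes, and neither passed. Nr5a1, which encodes SF1 itself, averaged 22.4 normalized CPM in DN outputs, 22.7 in CTRL outputs, 6.03 in DN inputs and 2.07 in CTRL inputs. In edgeR's quasi-likelihood test of output against input it passed in CTRL (adjusted p 0.00751) and not in DN (0.0946).

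Levels of the members are given as normalized CPM, read counts scaled to the size of the library. Atp1b1 stood at 564, 652 and 552 CPM in DN outputs, at 580, 519 and 392 in CTRL outputs, at 491, 450 and 439 in DN inputs and at 487, 458 and 397 in CTRL inputs. The lowest of the 12 values was CTRL output pool 3 and the highest DN output pool 2. DN outputs lay above DN inputs without overlap, as for 11.6% of all genes tested, while CTRL outputs spread across the whole range of CTRL inputs. Atp1b2 stood at 249, 254 and 240 CPM in DN outputs, at 174, 226 and 222 in CTRL outputs, at 563, 604 and 584 in DN inputs and at 441, 538 and 452 in CTRL inputs. Every output was below every input, and in both fractions every DN library was above every CTRL library. Of all genes tested, DN lay wholly above CTRL for 5.17% in outputs and 5.17% in inputs. Outputs lay wholly below inputs for 10.9% in DN and 11.2% in CTRL. Atp1b3 stood at 62.5, 38.3 and 68.2 CPM in DN outputs, at 50.2, 60.3 and 65.6 in CTRL outputs, at 83.9, 78.6 and 57.1 in DN inputs and at 53.9, 53.0 and 50.4 in CTRL inputs. Its DN output pool 2 was the lowest of the 12, its CTRL inputs were close together, and outputs and inputs overlapped in both conditions.

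**Figure D1:**
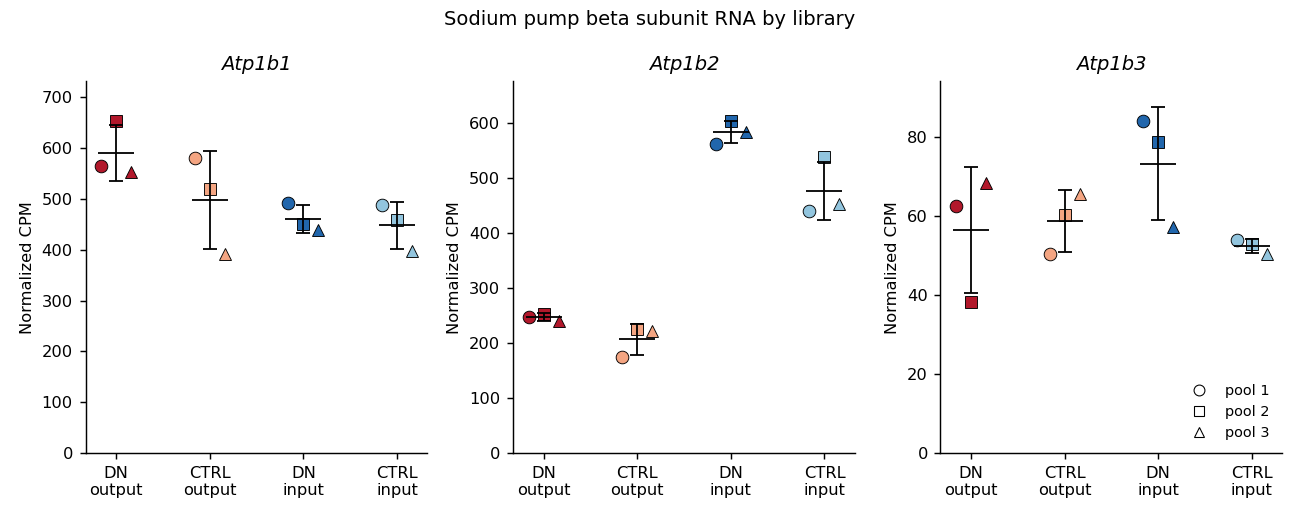
Normalized CPM of Atp1b1, Atp1b2 and Atp1b3 (1 panel each, vertical axis from 0) in the 3 libraries of DN output, CTRL output, DN input and CTRL input. Symbols mark the pool, and bars show the mean ± SD of 3 libraries. Atp1b2 is at 174 to 254 CPM in outputs and 441 to 604 CPM in inputs, with no overlap. Outputs and inputs of Atp1b3 overlap in both conditions, and those of Atp1b1 overlap in CTRL only.

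The first question was whether the beta subunits differ between the pulled-down RNA and the RNA of the whole dissected VMN. Outputs still held 17.9 to 26.1% mitochondrial counts, and their astrocyte markers summed to 1102 to 1817 CPM. A level in outputs can therefore not be read as that of SF1 cells alone. Atp1b2, the glial isoform, was lower in output than in input in both conditions. In DN it averaged 248 ± 6.81 CPM in outputs and 584 ± 20.5 CPM in inputs (SD, n = 3 each), a fold of 0.421. In CTRL it averaged 207 ± 28.6 CPM in outputs and 477 ± 53.0 CPM in inputs, a fold of 0.432. The log2 fold change was -1.25 ± 0.13 (SE) in DN, with an adjusted p of 0.000237, and -1.21 ± 0.15 in CTRL, with an adjusted p of 0.00194 (edgeR's quasi-likelihood test with Benjamini-Hochberg adjustment). Of all genes tested, 3.38% passed in DN, with 1.84% higher and 1.54% lower, and 3.20% passed in CTRL, with 1.78% higher and 1.42% lower. Without CTRL pool 2, the fold change of Atp1b2 in CTRL was -1.18 with an adjusted p of 0.0797 in edgeR, so the call in CTRL ended without that pool.

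Within each pool the log2 ratio of output to input of Atp1b2, from CPM plus 1, was negative. It was -1.18, -1.25 and -1.28 in the DN pools and -1.33, -1.25 and -1.02 in the CTRL pools. These 6 values lie close to each other, and those of the 2 conditions overlap. Groups of outputs and inputs lay apart in the lower direction for 10.9% of all genes in DN and for 11.2% in CTRL. A lower level in the pull-down can reflect, among other things, fewer cells of a type or less RNA per cell, and these cannot be told apart in pooled RNA.

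Atp1b1, the isoform common in neurons, did not pass the test in either condition. It averaged 590 ± 54.7 CPM in DN outputs and 460 ± 27.6 CPM in DN inputs. In CTRL it averaged 497 ± 96.2 CPM in outputs and 447 ± 46.0 CPM in inputs. The log2 fold change in DN was 0.35 ± 0.13, with a 95% interval of 0.07 to 0.63, an unadjusted p of 0.0197 and an adjusted p of 0.199 in edgeR's quasi-likelihood test. In CTRL it was 0.14 ± 0.16, with an interval of -0.22 to 0.50 and an adjusted p of 0.735 in the same edgeR test. The ratio within a pool was 0.20, 0.53 and 0.33 on the log2 scale in DN and 0.25, 0.18 and -0.02 in CTRL, so output exceeded input in all pools except CTRL pool 3. Outputs lay wholly above inputs for 11.6% of all genes in DN.

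Atp1b3, the broadly expressed isoform, had no common direction. It averaged 56.3 ± 15.9 CPM in DN outputs and 73.2 ± 14.2 CPM in DN inputs, and 58.7 ± 7.79 CPM in CTRL outputs and 52.4 ± 1.81 CPM in CTRL inputs. The log2 fold change was -0.39 ± 0.28 in DN and 0.15 ± 0.20 in CTRL, with adjusted p of 0.583 and 0.781 in edgeR's quasi-likelihood test. The 95% intervals ran from -1.01 to 0.23 and from -0.29 to 0.60. The ratio within a pool was -0.42, -1.02 and 0.25 in DN and -0.10, 0.18 and 0.37 in CTRL on the log2 scale, with both signs in each condition.

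**Figure D2:**
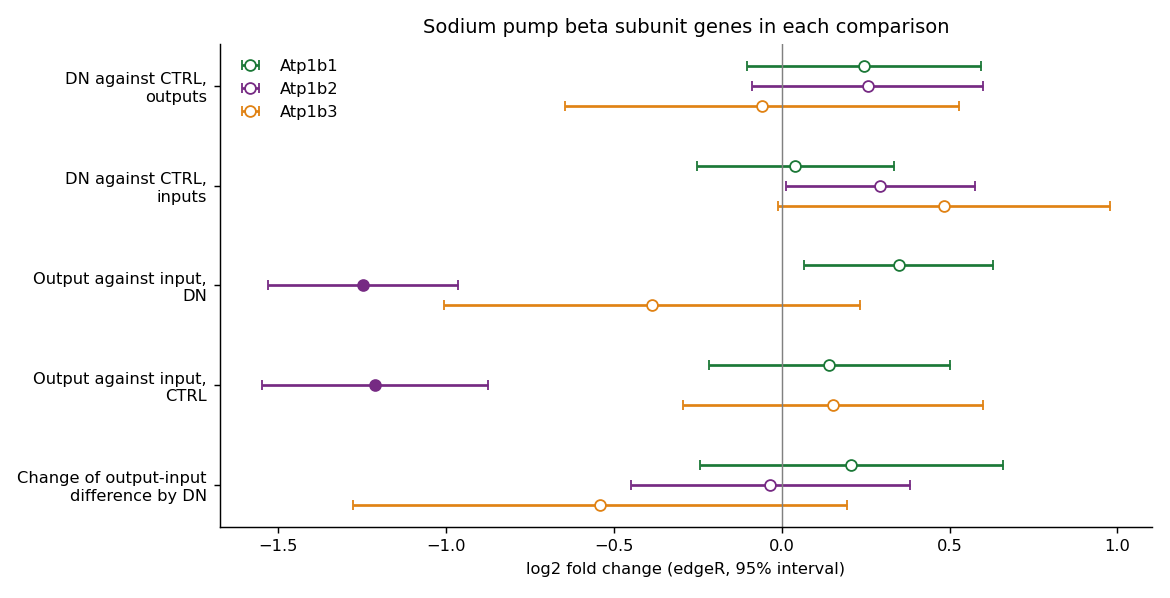
Log2 fold change (horizontal axis) of Atp1b1, Atp1b2 and Atp1b3 in 5 comparisons from edgeR, with bars for the 95% interval. Filled points have an adjusted p below 0.05, and these are Atp1b2 in output against input at -1.25 in DN and -1.21 in CTRL, while the other 13 points are open.

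Levels of different genes were compared per kilobase (kb) of merged exons, which are 3081 bases for Atp1b1, 4085 for Atp1b2 and 2389 for Atp1b3. Per kb, Atp1b1 averaged 191 CPM in DN outputs, 161 in CTRL outputs, 149 in DN inputs and 145 in CTRL inputs. Atp1b2 averaged 60.6, 50.7, 143 and 117 CPM per kb in the same order of groups, and Atp1b3 averaged 23.6, 24.6, 30.6 and 21.9. In all 6 outputs the order was Atp1b1, Atp1b2, Atp1b3, and in all 12 libraries Atp1b3 was lowest. Among 13438 protein-coding genes ranked by level per kb, Atp1b1 was at place 38 in outputs and 35 in inputs, Atp1b2 at 190 and 39, and Atp1b3 at 642 and 445.

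The make-up of beta subunit RNA is given here as a description without a test. Per kb, Atp1b1 held 69.3 ± 3.21% of it in DN outputs, 67.8 ± 6.93% in CTRL outputs, 46.2 ± 1.64% in DN inputs and 51.1 ± 3.17% in CTRL inputs. Atp1b2 held 22.0 ± 0.544%, 21.7 ± 4.55%, 44.3 ± 2.52% and 41.1 ± 3.27% in the same order, and Atp1b3 8.64 ± 2.75%, 10.5 ± 2.42%, 9.46 ± 1.52% and 7.74 ± 0.387%. The share of Atp1b1 lay at 60.9% or more in each output and at 54.8% or less in each input.

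Library scaling changes neither these shares nor the ratio of Atp1b1 to Atp1b2 in a library. That ratio comes from the same counts and lengths as the shares and so restates them. Per kb it was 3.01, 3.40 and 3.04 in DN outputs, 4.41, 3.05 and 2.34 in CTRL outputs, 1.16, 0.988 and 0.996 in DN inputs and 1.46, 1.13 and 1.16 in CTRL inputs. All outputs exceeded all inputs, and DN and CTRL overlapped in outputs and, narrowly, in inputs. In inputs the order of Atp1b1 and Atp1b2 depended on the length used. With the longest coding transcript (2580 bases for Atp1b1 and 2842 for Atp1b2) the mean log2 ratio was -0.21 in DN inputs and 0.05 in CTRL inputs, against 0.06 and 0.32 with merged exons. These genes were therefore neighbours without a clear order in inputs.

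**Figure D3:**
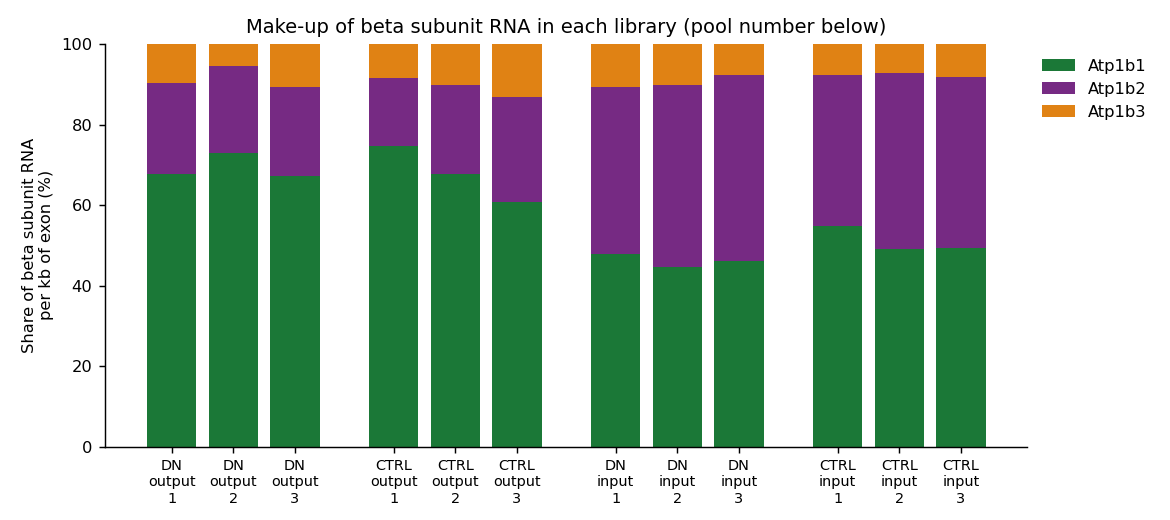
Share of beta subunit RNA per kb of merged exon (vertical axis, percent) held by Atp1b1, Atp1b2 and Atp1b3 in each of the 12 libraries, with the pool number below each bar. Atp1b1 holds 60.9 to 74.7% in outputs and 44.7 to 54.8% in inputs, and Atp1b2 takes most of the difference.

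The second question was whether dominant-negative AMPK changed the beta subunits in either fraction. None of the 3 genes passed in outputs or in inputs. In outputs the log2 fold change of DN against CTRL was 0.24 ± 0.16 for Atp1b1 (95% interval -0.10 to 0.59) and 0.26 ± 0.16 for Atp1b2 (-0.09 to 0.60), both with an adjusted p of 0.949, and -0.06 ± 0.27 for Atp1b3 (-0.65 to 0.53), with an adjusted p of 0.998 (edgeR's quasi-likelihood test). No gene of 13333 passed there (0%), while 721 (5.41%) had an unadjusted p below 0.05. DESeq2 called 169 genes and limma-voom 1, and neither called a member.

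In inputs the log2 fold change of DN against CTRL was 0.04 ± 0.13 for Atp1b1 (95% interval -0.25 to 0.33), 0.29 ± 0.13 for Atp1b2 (0.01 to 0.57) and 0.48 ± 0.23 for Atp1b3 (-0.01 to 0.98). The adjusted p in edgeR's quasi-likelihood test was 0.997 for each, with unadjusted p of 0.0429 for Atp1b2 and 0.0554 for Atp1b3. Of 13221 genes, 1 passed (0.00756%), the mitochondrial ribosomal RNA gene mt-Rnr1, and 589 (4.46%) had an unadjusted p below 0.05. DN lay wholly above CTRL for Atp1b2 in outputs and for Atp1b2 and Atp1b3 in inputs. That held for 5.17% of all genes tested in outputs and for 5.17% in inputs.

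Marker levels are given beside these values. The 18 astrocyte markers summed to 1102 to 1214 CPM in DN outputs and 1579 to 1817 CPM in CTRL outputs, and to 3154 to 3567 CPM in DN inputs and 3153 to 3717 CPM in CTRL inputs. The gap in outputs was mostly that of Slc1a2, at 852 to 975 CPM in DN outputs and 1319 to 1529 CPM in CTRL outputs. Without it the other 17 summed to 239 to 286 CPM in DN outputs and 255 to 288 CPM in CTRL outputs. By gene the list went both ways, with 8 positive and 9 negative log2 fold changes of DN against CTRL and a median of -0.031 in outputs, and 9 and 9 in inputs. The 18 pan neuronal markers summed to 9312 to 10274 CPM in DN outputs and 8085 to 8616 CPM in CTRL outputs, and to 6480 to 7008 CPM in DN inputs and 5621 to 6058 CPM in CTRL inputs. Of these, 14 had a positive log2 fold change in outputs (median of the list 0.19) and 13 in inputs (median 0.25). No gene of either list was at 0 in a group, and no single gene of them passed in DN against CTRL. Their part in the values of the beta subunits was not tested.

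The change of the output-input difference by DN was tested as an interaction over all 12 libraries. It was 0.21 ± 0.21 for Atp1b1 (95% interval -0.24 to 0.66), -0.03 ± 0.20 for Atp1b2 (-0.45 to 0.38) and -0.54 ± 0.35 for Atp1b3 (-1.28 to 0.19) on the log2 scale. The adjusted p was 0.955 for Atp1b1, 0.999 for Atp1b2 and 0.872 for Atp1b3 in edgeR's quasi-likelihood test. No gene of 15011 passed (0%), 933 (6.22%) had an unadjusted p below 0.05, and DESeq2 called 170 and limma-voom 0. The interval of Atp1b2 is narrower than its output-input differences of -1.25 in DN and -1.21 in CTRL, and that of Atp1b3 is the widest of the 3.

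Marker genes show where the beta subunits stand in the pull-down. Atp1b2 fell less than most astrocyte markers and more than every pan neuronal marker. The 18 astrocyte markers had a median log2 fold change of output against input of -2.27 in DN and -2.47 in CTRL, and 10 and 14 of them passed as lower. Slc1a3, a glutamate transporter of astrocytes, was at -2.44 ± 0.25 in DN and -2.58 ± 0.20 in CTRL, with adjusted p of 0.000229 and 3.81e-05 in edgeR's quasi-likelihood test. The fold change of Atp1b2 was above that of all 18 astrocyte markers in DN and of 16 in CTRL. In CTRL the glial water channel Aqp4 and the glutamate transporter Slc1a2, named after their values were seen, lay above it. Some of these gaps were smaller than the SE, as for Slc1a2 in DN (-1.30 ± 0.10) and Aqp4 in CTRL (-1.20 ± 0.22). The order of such genes and Atp1b2 is not resolved. The 18 pan neuronal markers had medians of 0.20 and 0.32, with 3 passing as higher in DN and 4 in CTRL, and all 18 were above Atp1b2 in both. The median of all genes tested was 0.0041 in DN and 0.02 in CTRL.

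Atp1b1 and Atp1b3 lay above every tested astrocyte and oligodendrocyte marker in both conditions. Of the pan neuronal markers, 11 were below Atp1b1 in DN and 5 in CTRL, so Atp1b1 stood within their range. Atp1b3 was below all 18 in DN and above 5 of them in CTRL. Of 14 VMN neuron markers, 12 lay above Atp1b1 in both conditions, and 13 in DN and 12 in CTRL lay above Atp1b3. In DN, the oligodendrocyte precursor markers Cspg4 and Lhfpl3 and the ependymal and tanycyte marker Crym lay above both genes. The mural marker Pdgfrb lay above Atp1b3 in DN. In CTRL none of these glial and mural markers lay above either gene. The summed levels of astrocyte markers (1102 to 1817 CPM in outputs, 3153 to 3717 CPM in inputs) and of oligodendrocyte markers (345 to 538 CPM in outputs, 1353 to 1692 CPM in inputs) moved the same way as Atp1b2. Without Slc1a2, the other 17 astrocyte markers summed to 239 to 288 CPM in outputs and 1000 to 1147 CPM in inputs. The mean sums of the oligodendrocyte precursor, microglia, endothelial and mural, and ependymal and tanycyte lists were also lower in outputs. Those of the pan neuronal and VMN neuron lists were higher in outputs. The part of these cell types in the lower level of Atp1b2 in outputs was not tested.

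**Figure D4:**
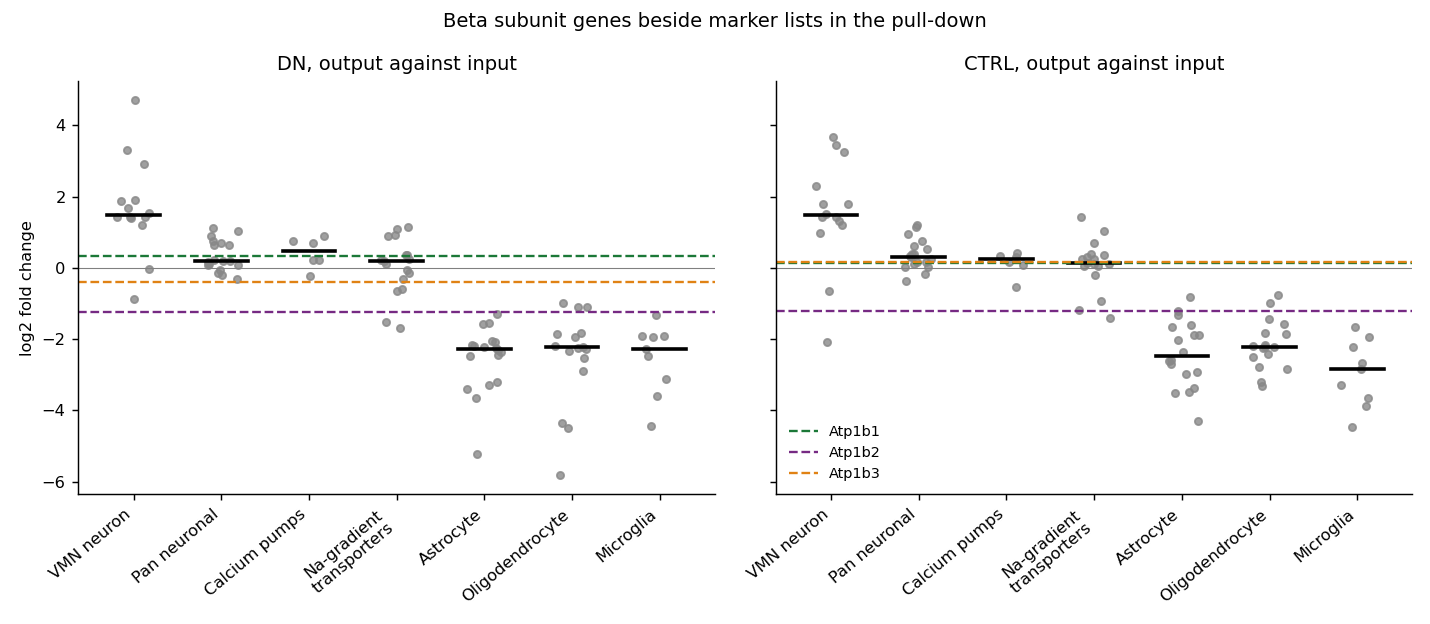
Log2 fold change of output against input (vertical axis) of single genes (grey points) in 7 lists, with a black bar at each list's median, in DN on the left and CTRL on the right. Dashed lines mark Atp1b1, Atp1b2 and Atp1b3. The Atp1b2 line, at -1.25 and -1.21, runs below all pan neuronal points and above all 18 astrocyte points in DN and 16 of 18 in CTRL. In CTRL the lines of Atp1b1 and Atp1b3 nearly coincide.

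Of the genes that work with the pump, none of the small regulators of the FXYD family passed in output against input, with 6 tested in DN and 5 in CTRL. Fxyd6, a brain-expressed member of the family, averaged 17.4 CPM in DN outputs, 30.9 in DN inputs, 18.6 in CTRL outputs and 33.8 in CTRL inputs, with adjusted p of 0.359 in DN and 0.221 in CTRL in the edgeR test. None of the 4 Nkain genes, whose products bind the Atp1b1 protein, passed either. Atp1b4, a muscle relative of the beta subunits, had 0 counts in all 12 libraries, which allows up to 0.0412 to 0.134 normalized CPM, depending on the library (3 counts, counting error only), and Atp4b, the beta subunit of the gastric proton pump, had 2 counts in 1 CTRL input and 0 elsewhere.

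Transporters that run on the sodium gradient moved in both directions. Of 17 tested of 21, 1 was higher and 1 lower in DN outputs than in inputs, and 0 were higher and 2 lower in CTRL. Slc4a4, a sodium bicarbonate cotransporter abundant in astrocytes, averaged 131 CPM in DN outputs, 368 in DN inputs, 151 in CTRL outputs and 401 in CTRL inputs, and its log2 fold change was -1.51 ± 0.18 in DN and -1.42 ± 0.16 in CTRL, with adjusted p of 0.000624 and 0.00107 in edgeR's quasi-likelihood test. It lay below Atp1b2 in both conditions. Slc8a2, at 1.09 in DN and the highest of the list in CTRL at 1.44, did not pass (adjusted p 0.271 and 0.0960 in edgeR). Slc12a2, a sodium-potassium-chloride cotransporter, was at -1.68 ± 0.43 in DN (adjusted p 0.0532 in edgeR) and -1.17 ± 0.26 in CTRL (0.0340), and the CTRL call ended when any 1 CTRL pool was left out (adjusted p 0.0579 to 0.300). Slc4a10, a sodium-dependent bicarbonate transporter of neurons, was at 0.90 ± 0.18 in DN (adjusted p 0.0186 in edgeR) and 0.70 ± 0.17 in CTRL (0.0512), and the DN call ended without DN pool 2 (0.167) or pool 3 (0.174).

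Of the 6 calcium pumps tested, 1 passed in DN and 0 in CTRL. In each condition 5 had a positive log2 fold change, and Atp2c1 was negative, at -0.21 in DN and -0.54 in CTRL. Atp2b2, a plasma membrane calcium pump, averaged 217 CPM in DN outputs and 116 in DN inputs, and 160 CPM in CTRL outputs and 128 in CTRL inputs. Its log2 fold change was 0.89 ± 0.18 in DN (adjusted p 0.0196 in edgeR), which ended without any 1 DN pool (0.108 to 0.154), and 0.31 in CTRL (adjusted p 0.364). In DN against CTRL, in outputs or inputs, and in the interaction, no gene of these lists passed.

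The genes whose pattern over the 12 libraries was most like each member were named by Pearson's r of log2(CPM + 1) among 3892 genes. For Atp1b2 these were 5 of the mitochondrially encoded subunits of respiratory complex I, mt-Nd2, mt-Nd6, mt-Nd5, mt-Nd4 and mt-Nd1, with r of 0.991 to 0.988. Their log2 fold changes of output against input were -3.17 to -2.67 in DN and -3.14 to -2.67 in CTRL, below those of Atp1b2. For Atp1b1 they included Amph, an endocytosis protein of nerve terminals (0.907), the microtubule-associated Nav1 (0.897), the phosphatase gene Ocrl (0.878) and the respiratory subunit gene Cox6a1 (0.874). For Atp1b3 they were Plcl1, Cox6c, the clathrin heavy chain gene Cltc, Snapc3 and Cdc42, with r of 0.808 to 0.757. The 12 points share the gap between output and input and the 6 pools. Between members r was -0.52 for Atp1b1 and Atp1b2, -0.35 for Atp1b1 and Atp1b3 and 0.29 for Atp1b2 and Atp1b3.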

How the data were processed

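The authors deposited 1 table of read counts per library, whole numbers per Ensembl gene with no normalization. The tools named in the submitters' processing notes are HTSeq 0.6.1, STAR 2.4.2a and cutadapt 1.3, with build GRCm38. The strand setting and annotation release are not given in the sources. Per the labels' protocols, RNA was amplified with the NuGEN Ovation V2 system, so counting limits cover counting error only. The rows for reads without a gene (16.1 to 26.1% of reads in the tables) were left out. GENCODE M21 named 46005 of 46517 identifiers (98.9%).

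Genes were tested in edgeR 4.0.16 (R 4.3.3), by two-sided quasi-likelihood tests after filterByExpr (at least 10 counts, 15 in total) and TMM scaling, with Benjamini-Hochberg adjustment over all genes tested at 0.05. Each fit held the 6 libraries compared, and the interaction all 12. Replicates are separate pools. Alternatives were DESeq2 1.42.0, limma-voom (limma 3.58.1), other scalings and filters, leaving out each pool, a replicate block and a joint fit of the libraries. The scripts were tested on simulated counts. Figures were drawn with matplotlib 3.10.9.

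Output and input of a number come from the same animals and so are paired. The main tests did not use this pairing and treated the libraries as separate, with the replicate block as an alternative. Deviations of output and input of a pool correlated across 15011 genes at 0.0041, -0.0023 and 0.015 in DN and at 0.096, 0.035 and 0.156 in CTRL. DN and CTRL share only a number. Members, lists and tests were chosen with earlier results of these data known. Named genes were the members, up to 4 per list with the smallest unadjusted p in output against input, and the 5 genes of at least 20 CPM most like each member. Genes of the catalytic subunit, and 1 gene that the last rule took, are not reported here.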

Additional observations from a re-analysis of the deposited data

How the results depend on the processing

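The lower level of Atp1b2 in outputs passed under all 9 other settings in DN (log2 fold change -1.37 to -1.22, adjusted p 1.00e-17 to 0.000491) and in CTRL (-1.31 to -1.18, 4.99e-10 to 0.00216). Leaving out a pool gave -1.27 to -1.23 in DN and -1.29 to -1.16 in CTRL, where the call ended without pool 2 (adjusted p 0.0797). With the replicate block, which joins output and input of a pool, 396 genes passed in DN and 527 in CTRL, against 441 and 431, and 0 in the interaction. No call of a member changed. For DN against CTRL the block joins unrelated pools, with 0 genes in outputs and 0 in inputs. No beta subunit passed in DN against CTRL or the interaction under any setting. Signs turned for values near 0: Atp1b1 in inputs was -0.024 under upper quartile scaling and -0.040 to 0.11 without a pool, Atp1b3 in outputs -0.22 to 0.16 without a pool, and the Atp1b2 interaction -0.089 to 0.057. The mean log2 ratio per kb of Atp1b1 to Atp1b2 with the longest coding transcript, a setting added after seeing the data, was 1.39 in DN outputs, -0.21 in DN inputs and 0.048 in CTRL inputs, and without a pool -0.012 to 0.10 in DN inputs. Counts over all genes moved more. DESeq2 called 169 genes in DN against CTRL in outputs, 50 in inputs, 1568 in output against input in DN, 1651 in CTRL (where its median over all genes was -0.20) and 170 in the interaction. Without a filter the counts were 39 in inputs, 976 in DN, 903 in CTRL and 54 in the interaction. Limma-voom called 1 gene in outputs and 8 in inputs, and inputs had 0 under size factors, upper quartile scaling, no mitochondrial genes, at least 5 CPM and 1 fit of 12 libraries, where output against input in DN had 673. Without a pool the ranges were 0 to 8 in inputs, 115 to 148 in DN, 45 to 214 in CTRL and 0 to 0 in the interaction. In CTRL, upper quartile scaling gave 160 genes higher and 194 lower, against 240 and 191. The causes were not tested. With 3 pools a group, the intervals of DN against CTRL in outputs and inputs allow changes of the beta subunits of up to 0.98 on the log2 scale. The interaction interval of Atp1b3 reaches -1.28.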
